A study of Mus musculus with 6 samples.

Results

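Clade A serpin genes that neighbour each other on mouse chromosome 12 were examined, 10 in all: the 5 α1-antitrypsin genes Serpina1a, Serpina1b, Serpina1c, Serpina1d and Serpina1e, the antichymotrypsin-like genes Serpina3k, Serpina3m and Serpina3n, and Serpina6 and Serpina10. The genes were chosen by name, with their KO and WT levels in these same libraries known, and each is represented by the transcript selected on its highest mean over the 6 libraries. They make up 10 of the 23394 genes matched in the deposited tables. All 10 passed the filter on low values that left 15619 genes to be tested, and each had at least 29 reads in every library.

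The study measured polyadenylated RNA, sequenced with a strand-specific kit, from liver cells of male C57BL/6 mice aged 3 months and kept on normal chow. All mice, of both genotypes, had received carbon tetrachloride (CCl4), a hepatotoxin, by intraperitoneal injection to cause fibrosis, and cells carrying the macrophage antigen F4/80 were selected with magnetic beads after digestion of the liver. The wild-type (WT) group had 3 libraries, and the knockout (KO) group had 3. The labels name neither the targeted gene nor any promoter or Cre driver, so the targeted gene could not be checked, and they do not say that each library is a separate animal, so the p-values reflect only how far these samples differ among themselves, which may be technical.

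Serpins are protease inhibitors that offer a loop, the reactive centre, as bait: the protease cleaves it, stays bound and is carried away with the inhibitor. Hepatocytes secrete most clade A serpins into plasma, where α1-antitrypsin, the main inhibitor of neutrophil elastase, is the most abundant. Humans have a single gene for it, while the mouse has several copies that differ in the loop and so in the proteases they bind. The Serpina3 group is likewise a single human gene, for α1-antichymotrypsin, that was multiplied in the mouse, and some clade A serpins, such as the hormone carrier Serpina6, no longer inhibit proteases.

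The 5 Serpina1 coding sequences were 96.3% to 98.5% identical over 1242 bases counted back from the stop codon, with 86 variable positions. The most in any 60-base stretch were 18, against a median of 4, and the first of 3 overlapping stretches that held 18 ran from coding base 1102 to 1161, toward the 3′ end, where serpins encode the reactive centre loop. It is shown because it is where the copies are easiest to tell apart, both as inhibitors and for reads. In each gene it lay in the last coding exon, exon 6 of 6 in Serpina1a and exon 5 of 5 in the others, on the minus strand of GRCm38. Capitals mark the positions that vary among the 5 genes.
Serpina1a, chr12:103853756-103853815: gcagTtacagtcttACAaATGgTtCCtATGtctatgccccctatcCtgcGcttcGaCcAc
Serpina1b, chr12:103728323-103728382: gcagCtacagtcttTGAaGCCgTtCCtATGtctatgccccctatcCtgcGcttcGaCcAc
Serpina1c, chr12:103895093-103895152: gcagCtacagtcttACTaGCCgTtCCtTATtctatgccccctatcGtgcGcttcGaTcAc
Serpina1d, chr12:103763761-103763820: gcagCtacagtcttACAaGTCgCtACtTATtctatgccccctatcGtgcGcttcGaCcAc
Serpina1e, chr12:103947099-103947158: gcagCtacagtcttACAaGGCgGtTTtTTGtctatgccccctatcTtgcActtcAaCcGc

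Serpina1e stood alone against otherwise identical copies at 17 positions of its coding sequence, 4 of them in this stretch. Positions where the other copies also differ among themselves are not in these counts. The other copies stood alone at 16 (Serpina1b), 15 (Serpina1d), 7 (Serpina1c) and 6 (Serpina1a) positions. Serpina1a and Serpina1c were the closest pair, with 19 differences. Among the Serpina3 genes, Serpina3k and Serpina3m were 91.6% identical, and Serpina3n was 82.7% and 85.2% identical to them.

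**Figure D1:**
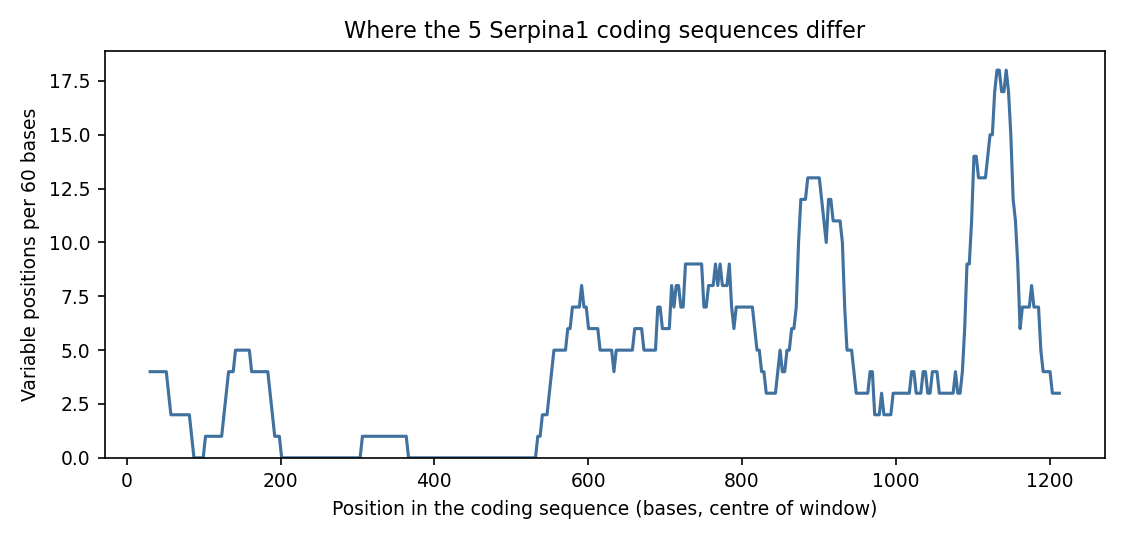
Number of positions that differ among the 5 Serpina1 coding sequences in each 60-base window (y axis) against the position of the window's centre in the coding sequence (x axis, bases). The curve reaches its highest value, 18, near the 3′ end, where the printed window lies.

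How far reads can be assigned to a copy differs between the genes. Of all 50-base windows of the kept transcript, 64.4% were found in no other gene's transcripts for Serpina1e, 52.9% for Serpina1b, 49.1% for Serpina1d, 32.6% for Serpina1a and 20.7% for Serpina1c. The corresponding shares were 80.9% to 93.1% in the 3 Serpina3 genes, 98.1% in Serpina10 and 100% in Serpina6. With 100-base windows, Serpina1e reached 85.2% and Serpina1c 30.7%. The kept transcripts of Serpina1e (1575 bases) and Serpina1a (1581 bases) have shorter isoforms of 1295 and 1360 bases with nearly the same or the same reads. These shares count the windows of the longer forms and were not computed for the shorter ones. No label or file header gives the read length or how reads that fit more than 1 copy were counted. Counts of single Serpina1 copies, and of Serpina1a and Serpina1c above all, are therefore uncertain.

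The stretch upstream of the RefSeq starts of the Serpina1 genes is shown because all 5 genes were higher in the KO libraries. RefSeq promoter windows on GRCm38.p6, from 250 bases before to 50 after the gene start, were at hand for 6 of the 10 genes, the 5 Serpina1 genes and Serpina3n. The letters GTTAAT occurred on either strand in all 5 Serpina1 windows, in none of Serpina3n, and in 7.10% of all 32851 windows. The 76 bases around it are on the minus strand, with these letters in capitals.
Serpina1a, chr12:103863625-103863700: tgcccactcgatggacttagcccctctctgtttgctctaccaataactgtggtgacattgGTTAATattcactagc
Serpina1b, chr12:103738200-103738275: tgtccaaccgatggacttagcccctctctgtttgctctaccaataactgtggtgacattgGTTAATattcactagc
Serpina1c, chr12:103904962-103905037: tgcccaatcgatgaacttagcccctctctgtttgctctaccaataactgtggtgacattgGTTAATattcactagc
Serpina1d, chr12:103773634-103773709: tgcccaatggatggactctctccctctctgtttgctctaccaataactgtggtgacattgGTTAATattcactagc
Serpina1e, chr12:103956960-103957035: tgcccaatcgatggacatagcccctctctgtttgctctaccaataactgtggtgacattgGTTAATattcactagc

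Against Serpina1e, these stretches differed at 2 positions in Serpina1a and Serpina1c, 3 in Serpina1b and 6 in Serpina1d. Matches in such close copies are not independent of each other. The letters in capitals began 16 to 27 bases before the RefSeq gene start in Serpina1a to Serpina1d and 78 bases before that of Serpina1e. The kept Serpina1e transcript starts further upstream, at chr12:103958975, so the stretch printed for Serpina1e lies within the span of that transcript. The C/EBP letters TTGCNNAA were found in the windows of Serpina1a, Serpina1b, Serpina1d and Serpina1e and in 10.8% of all windows. TATAAA and the STAT letters TTCNNNGAA were in none of the 6 windows, against 13.6% and 8.30% of all windows. GTTAATNAT, a longer form of the letters in capitals, was in none of the 6 either (0.80% of all windows). These matches are letters in a window, and binding was not measured.

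Values are given as the authors' normalised counts, read counts divided by a factor per library. In the comparison of KO with WT by limma, 2.44% of all tested genes passed an adjusted p of 0.05, 326 higher (2.09%) and 55 lower in KO. All 5 Serpina1 genes passed, all higher in KO, and none of Serpina3k, Serpina3m, Serpina3n, Serpina6 and Serpina10 did. All 5 of the latter had an unadjusted p under 0.05, as had 18.0% of all tested genes, and edgeR called 0 and DESeq2 1 of them. Counts at an unadjusted p under 0.05 given below are to be read against that share. All 10 genes had log2 changes above 0, with a median of 2.14 against 0.05 over all tested genes, and in 9 of them every KO library was above every WT library, as in 13.7% of all tested genes. Since all 10 genes were chosen with these levels known, the counts and the adjusted p-values below describe where the genes stand among all tested genes and are no independent test.

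**Figure D2:**
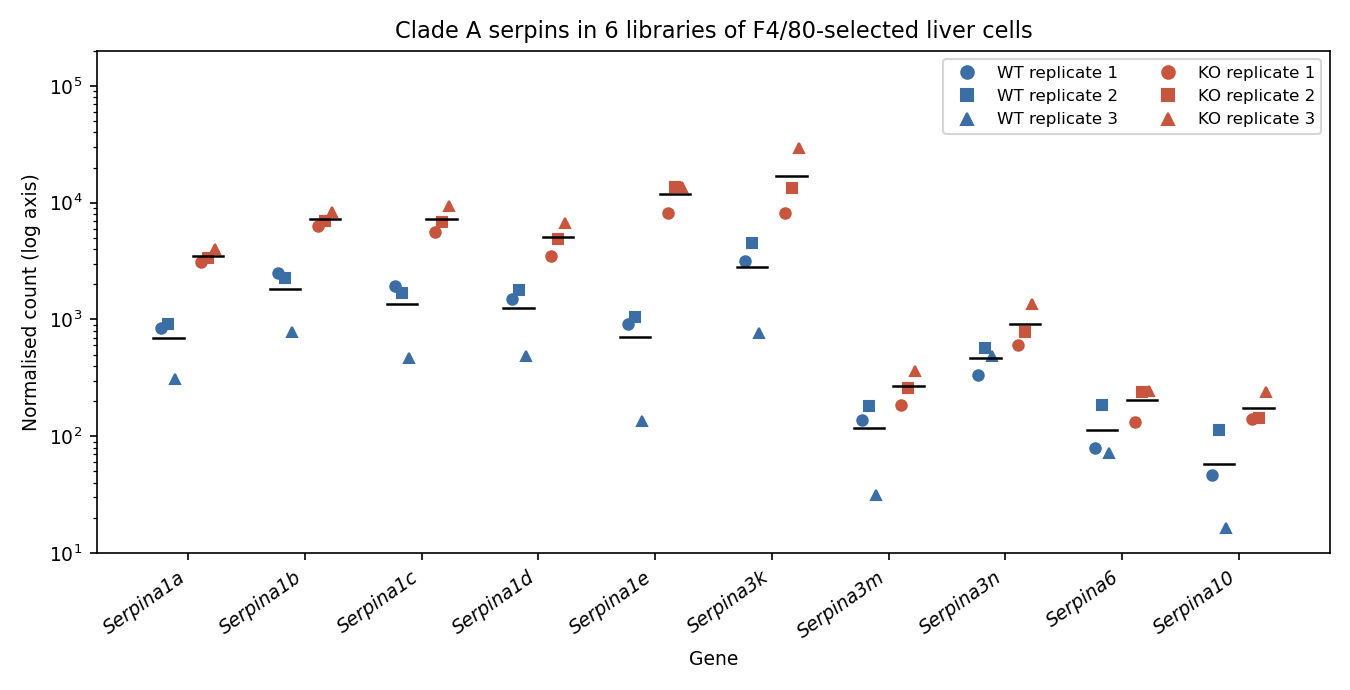
Normalised counts (log axis) of the 10 genes in each library, WT in blue and KO in red, with marker shapes for replicates and a black bar for the group mean. KO points lie above all WT points in every gene except Serpina6, and WT replicate 3 is the lowest library for every gene except Serpina3n.

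Serpina1e showed the widest gap between the groups. It stood at normalised counts of 918, 1058 and 136 in the WT libraries and 8128, 13581 and 13700 in the KO libraries. The groups were far apart, and WT replicate 3 was the lowest by a wide margin. The means were 704 ± 497 and 11803 ± 3183 (SD, n = 3 each), 16.8 times higher in KO, and the log2 change of 4.49 (SE 0.66, limma adjusted p = 0.0178) was the sixth largest of all tested genes.

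Serpina1a, the copy with the lowest KO level, had 842, 915 and 311 normalised counts in WT and 3093, 3347 and 4035 in KO. The means of 689 ± 330 and 3492 ± 488 (SD, n = 3 each) were 5.07-fold apart, or 2.48 on the log2 scale (SE 0.37, limma adjusted p = 0.0182). WT replicate 3 was again low, and the KO libraries lay close together.

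Serpina1b was the highest copy in WT. Its normalised counts were 2491, 2249 and 781 in WT and 6302, 7008 and 8293 in KO, and the means of 1840 ± 925 and 7201 ± 1010 (SD, n = 3 each) differed 3.91-fold. It rose by 2.13 on the log2 scale (SE 0.39, limma adjusted p = 0.0312). Without KO replicate 2 or KO replicate 3 the adjusted p was 0.0933 and 0.117.

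Serpina1c had 1921, 1671 and 472 normalised counts in WT and 5575, 6813 and 9333 in KO. The means were 1355 ± 775 and 7240 ± 1915 (SD, n = 3 each), 5.35-fold apart. The gene rose by 2.62 on the log2 scale (SE 0.47, limma adjusted p = 0.0283), a call lost without KO replicate 2 (adjusted p = 0.0849) or KO replicate 3 (0.113). On the opposite strand, B430119L08Rik overlaps 429 of its exon bases, and had 0 reads in 4 libraries and 1 in each of KO replicates 2 and 3.

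Serpina1d had 1508, 1786 and 491 normalised counts in WT and 3489, 4917 and 6708 in KO. The groups did not overlap, and the means of 1262 ± 682 and 5038 ± 1613 (SD, n = 3 each) were 3.99-fold apart. It rose by 2.15 on the log2 scale (SE 0.45, limma adjusted p = 0.0459), but the call was the least stable of the 5. edgeR gave an adjusted p of 0.0634, and limma gave 0.0989 without WT replicate 1, 0.132 without KO replicate 2 and 0.167 without KO replicate 3.

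The calls of the whole group turned on single libraries. Without KO replicate 3, limma called none of the 10 genes, 7 of which had an unadjusted p under 0.05, and 8 genes of the whole table instead of 381. There the log2 changes were 2.37 for Serpina1a (adjusted p = 0.0793) and 4.36 for Serpina1e (adjusted p = 0.0757). Without KO replicate 2, limma called Serpina1a and Serpina1e alone. Without WT replicate 2 it called 7, with Serpina3k (adjusted p = 0.0480) and Serpina10 (adjusted p = 0.0489) added.

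Summed over the 5 genes, the Serpina1 normalised counts were 7680, 7679 and 2190 in WT and 26587, 35666 and 42070 in KO. They took 0.0176% to 0.0496% of the reads of a WT library and 0.165% to 0.260% of a KO library. The ratio of the mean sums was 5.94, and 4.46 with Serpina1e left out.

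The make-up of the Serpina1 reads also differed between the groups. Serpina1e held 11.95%, 13.8% and 6.20% of them in WT and 30.6%, 38.1% and 32.6% in KO. The mean share was 10.6% ± 3.96 in WT and 33.7% ± 3.89 in KO (SD, n = 3 each), a gap of 23.1 percentage points that stayed between 20.9 and 24.7 when any single library was left out. Wilson 95% intervals for a share in a single library cover counting error only. Over the Serpina1 shares and the Serpina3 shares given below, their half-width was at most 2.004 points.

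The other 4 copies had lower mean shares in KO, and for Serpina1b and Serpina1d the groups did not overlap. Serpina1b went from 32.5% ± 3.18 to 21.02% ± 2.32 and Serpina1d from 21.8% ± 1.90 to 14.3% ± 1.48 (SD, n = 3 each). Serpina1a, at 12.3% ± 1.65 and 10.2% ± 1.24, and Serpina1c, at 22.8% ± 1.95 and 20.8% ± 1.55 (SD, n = 3 each), overlapped between the groups. A two-sided exact permutation test with 3 against 3 libraries cannot give a p under 0.1, which was the value for Serpina1e, Serpina1b and Serpina1d. These shares are a description too, and the lower shares of the others follow in part from it.

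**Figure D3:**
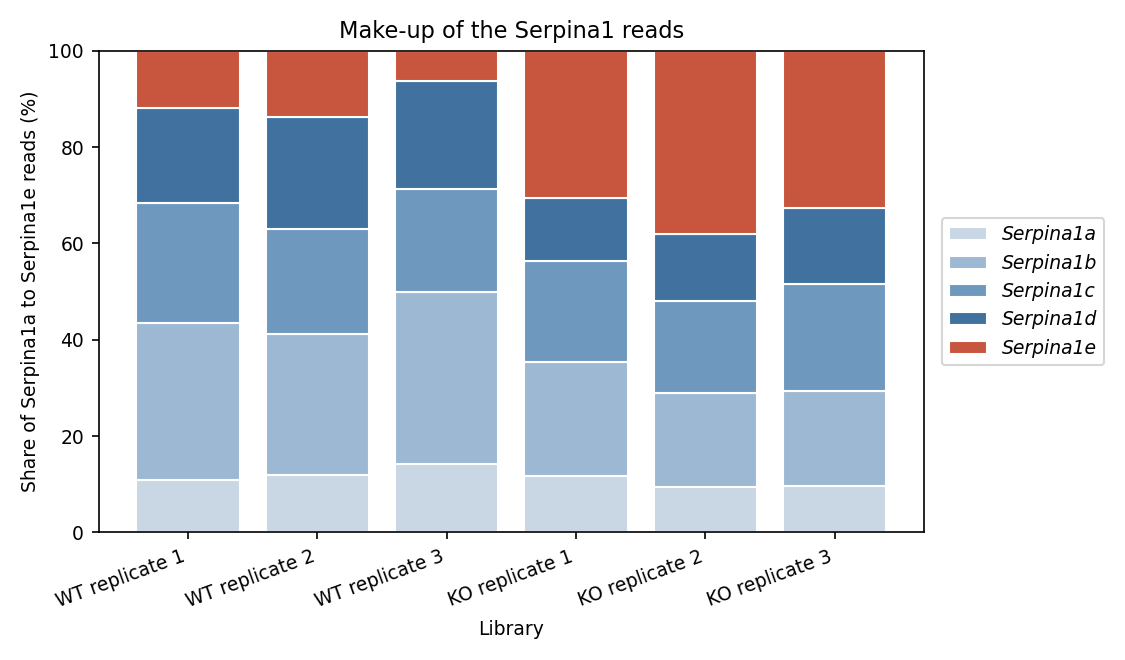
Stacked bars give the share of the summed Serpina1 reads (%) held by each copy in each library, with Serpina1e in red on top. The red part is 6.20% to 13.8% in the WT libraries and 30.6% to 38.1% in the KO libraries.

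Serpina3k, the mouse contrapsin, an inhibitor of trypsin-like proteases, was the most abundant Serpina3 gene. Its normalised counts were 3171, 4560 and 769 in WT and 8215, 13324 and 29387 in KO. The groups did not overlap, but the KO libraries spanned a wide range, with KO replicate 3 the highest. The means of 2833 ± 1918 and 16976 ± 11048 (SD, n = 3 each) were 5.99-fold apart, and the log2 change of 2.72 (SE 0.64) did not pass (limma adjusted p = 0.0605). DESeq2 gave an adjusted p of 0.0201 and edgeR one of 0.0858, and limma gave 0.0372 without KO replicate 1.

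Serpina3n, which inhibits granzyme B and leukocyte elastase and is made by many cell types on inflammation, had 336, 575 and 490 normalised counts in WT and 605, 782 and 1345 in KO. It was the only one of the 10 genes in which WT replicate 3 was not the lowest library. The means of 467 ± 121 and 911 ± 387 (SD, n = 3 each) were 1.95-fold apart (log2 change 0.91, SE 0.31, limma adjusted p = 0.158).

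Serpina3m had 138, 183 and 31.4 normalised counts in WT and 185, 260 and 364 in KO, with KO replicate 1 barely above WT replicate 2. Its log2 change of 1.47 (SE 0.59) did not pass (limma adjusted p = 0.227). Serpina3k and Serpina3m share 60 exon bases on the same strand, 2.92% and 3.62% of their exon lengths.

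Within the 3 Serpina3 genes, Serpina3k held 87.0%, 85.7% and 59.6% of the reads in WT and 91.2%, 92.8% and 94.5% in KO. Serpina3n held 9.21%, 10.8% and 38.0% in WT and 6.72%, 5.44% and 4.33% in KO. WT replicate 3 stood apart in both, because Serpina3k was low there and Serpina3n was not. The 3 genes summed were 5.31-fold higher in KO by their means.

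Serpina6, corticosteroid-binding globulin, which carries glucocorticoids in plasma, was the only gene whose groups overlapped. Its normalised counts were 79.3, 186 and 71.9 in WT and 133, 237 and 246 in KO (log2 change 0.95, SE 0.42, limma adjusted p = 0.270). Serpina10, the protein Z-dependent inhibitor of coagulation factor Xa, had 46.4, 112 and 16.3 in WT and 142, 143 and 238 in KO. Its groups did not overlap, but the log2 change of 1.91 (SE 0.61) did not pass (limma adjusted p = 0.131).

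Between genes, levels were compared as mean normalised counts per kilobase of the kept transcript. In WT the order was Serpina3k (1377), Serpina1b (1320), Serpina1c (995), Serpina1d (905), Serpina1e (447), Serpina1a (436), Serpina3n (226), Serpina3m (70.8), Serpina6 (70.0) and Serpina10 (16.7). In KO it was Serpina3k (8253), Serpina1e (7494), Serpina1c (5320), Serpina1b (5166), Serpina1d (3614), Serpina1a (2209), Serpina3n (441), Serpina3m (163), Serpina6 (128) and Serpina10 (49.8). The genes from Serpina3n down kept their order. Among the others the order depended on the isoform, since isoforms of other lengths carried the same or nearly the same reads. With the 1295-base isoform Serpina1e had 540 in WT and 9052 in KO, above Serpina3k. The 1360-base isoform gave Serpina1a 507 and 2567, and the 1762-base isoform gave Serpina1b 1045 and 4087. With any of these lengths Serpina1e stood below Serpina1b, Serpina1c and Serpina1d in WT and above them in KO. The order of the Serpina1 copies may also depend on how reads that fit several copies were counted, which is not known. Of 50-base windows of the kept isoforms, 64.4% were found in no other gene for Serpina1e and 20.7% for Serpina1c. With the kept isoforms, in both groups the ranges over the 3 libraries of neighbours in the order overlapped from Serpina3k down to Serpina1a, and those of Serpina3m and Serpina6 did too. The ranges of Serpina3n and Serpina3m, and of Serpina6 and Serpina10, were apart in both groups, and those of Serpina1a and Serpina3n in KO alone.

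RNA of cells other than macrophages was present in all 6 libraries, although the labels call the cells macrophages. The 12 macrophage markers (Adgre1, which encodes F4/80, among them) took 0.574% to 0.929% of the reads in WT and 0.424% to 0.552% in KO. Their median log2 change was -0.07, with 0 called by limma (3 at an unadjusted p under 0.05, 0 by edgeR, 3 by DESeq2). Of the 12, 4 had log2 changes above 0. The 3 of highest mean, which weigh most in the share of reads, were Csf1r (-0.92), Cd5l (-0.67) and Marco (-1.63). The 14 hepatocyte markers took 0.290% to 0.614% in WT and 0.797% to 1.41% in KO, none at 0 in any library. All 14 had log2 changes above 0, median 1.74, and 6 were called higher. In bulk RNA, a different number of cells of a type and a different amount of RNA per cell cannot be told apart.

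The 6 hepatocyte markers that passed had log2 changes of 1.72 to 2.84, in the range of most Serpina1 genes or next to it. They were the metabolic enzymes Pck1 (2.84), Hpd (2.78), Tat (2.71), Cyp2e1 (2.35), Ass1 (2.25) and Cps1 (1.72), against 2.13 to 2.62 for Serpina1a to Serpina1d. The 3 markers of highest mean did not pass. Alb, serum albumin, had means of 43193 ± 22321 in WT and 89522 ± 25893 in KO (SD, n = 3 each; log2 change 1.19, limma adjusted p = 0.283). Trf, transferrin, had a log2 change of 0.80 (limma adjusted p = 0.362) and Apoa1, the main protein of high-density lipoprotein, one of 2.23 (limma adjusted p = 0.0549). Like 9 of the 10 serpins, all but Serpina3n, Alb was lowest in WT replicate 3 and highest in KO replicate 3.

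Endothelial and stellate cell markers also held calls by limma, but none by edgeR. Of 9 endothelial markers 4 were called higher (5 by DESeq2, median log2 change 1.28, 0.202% to 0.274% of reads in WT and 0.325% to 0.659% in KO), and of 8 stellate cell markers 1 was (2 by DESeq2, median 0.69). The 4 erythroid markers had a median of 3.13, with 0 called by limma (4 at an unadjusted p under 0.05, 0 by edgeR and by DESeq2) and took 0.0139% to 0.142% in WT and 0.146% to 1.25% in KO. The 6 neutrophil markers, with a median of -0.09, and the 4 cholangiocyte markers, with a median of 1.02, had 0 called by limma (1 and 3 at an unadjusted p under 0.05, 0 and 0 by edgeR, 1 and 0 by DESeq2). The part of these cell types in the serpin values was not tested.

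Set against the 14 summed hepatocyte markers of the same library, the Serpina1 genes and Serpina3k were higher in KO, but for all of them except Serpina1e this depended on how the markers were weighted. The sum is carried by Alb and Trf, whose log2 changes were the lowest of the 14. Per 1000 counts of these markers, the summed Serpina1 genes had 87.1, 71.7 and 60.8 in WT and 208, 223 and 184 in KO, a log2 difference of 1.495. Serpina1e had 10.4, 9.89 and 3.77 in WT and 63.4, 84.9 and 59.8 in KO, a log2 difference of 3.23. Serpina3k had 35.9, 42.6 and 21.4 in WT and 64.1, 83.3 and 128 in KO, a log2 difference of 1.46.

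The groups did not overlap in this ratio for Serpina1a (1.22), Serpina1b (0.87), Serpina1c (1.36) and Serpina1d (0.89) either, where each value is a log2 difference. For these 6 genes and for the Serpina1 sum the two-sided exact permutation p was 0.1, the smallest that 3 against 3 libraries allow. The groups overlapped for Serpina3m (0.23), Serpina3n (-0.35), Serpina6 (-0.31) and Serpina10 (0.68). Without WT replicate 3, Serpina3m came to -0.08 and Serpina3n to 0.18. With Alb alone in place of the 14 markers, the log2 difference of the Serpina1 sum was 1.57.

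Against the other 12 markers summed, without Alb and Trf, the log2 difference was 2.65 for Serpina1e, 0.91 for the Serpina1 sum, 0.64 for Serpina1a, 0.29 for Serpina1b, 0.78 for Serpina1c, 0.30 for Serpina1d and 0.88 for Serpina3k. The groups were then apart for Serpina1e and for the sum, and overlapped for Serpina1a to Serpina1d and Serpina3k. With the 14 markers given equal weight, as the mean of their log2 values, Serpina1e came to 2.61 and the sum to 0.87. The groups were apart for these and for Serpina1c (0.74), and overlapped for Serpina1a (0.59), Serpina1b (0.24), Serpina1d (0.26) and Serpina3k (0.84). Serpina3n was lower in KO without overlap in both settings (-0.93 and -0.97). These 2 settings were chosen after the data had been seen.

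**Figure D4:**
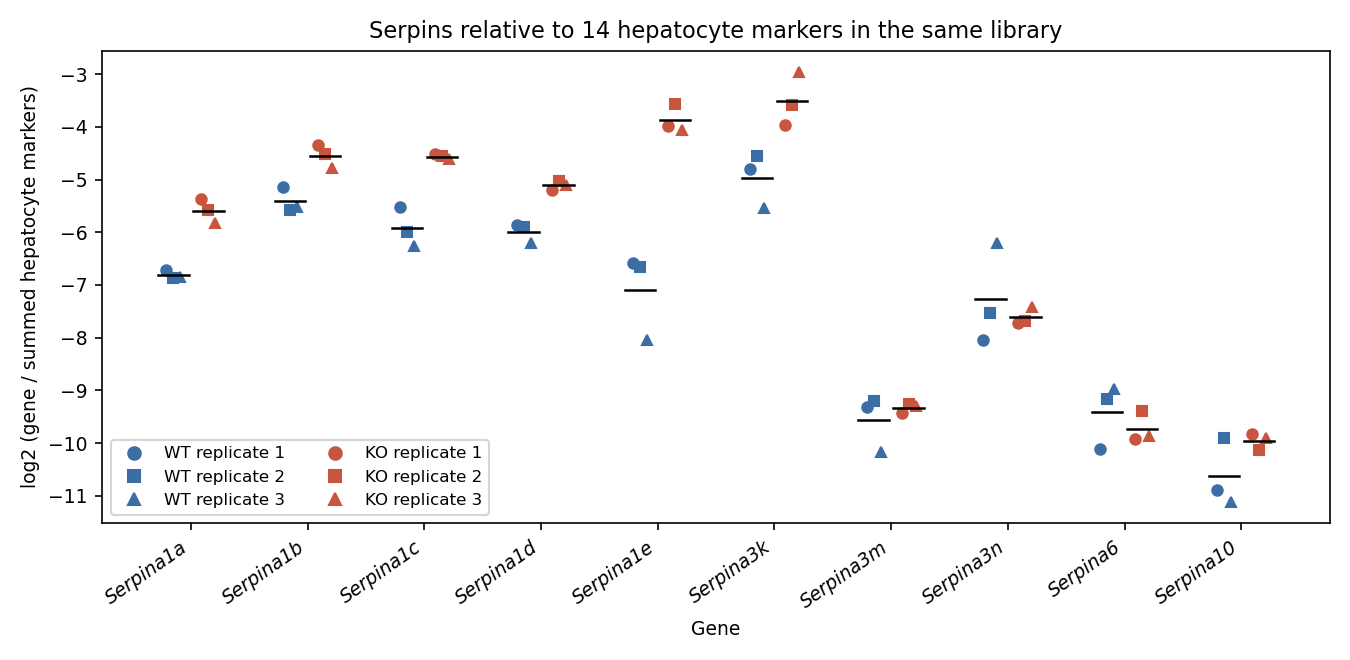
Log2 ratio of each gene to the 14 summed hepatocyte markers of the same library (y axis), WT in blue and KO in red, with a black bar for the group mean. KO points lie above all WT points for the 5 Serpina1 genes and Serpina3k, and the groups overlap for Serpina3m, Serpina3n, Serpina6 and Serpina10.

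Of the other clade A serpins, 11 of 15 listed were matched and 8 tested, of which 7 had log2 changes above 0 (median 0.86). limma called 0 of the 8, with 4 at an unadjusted p under 0.05, edgeR 1 and DESeq2 2. Serpina12, vaspin, an adipose and liver inhibitor of a kallikrein, had 7.21, 5.25 and 8.98 normalised counts in WT and 38.7, 47.7 and 203 in KO. Its log2 change of 3.20 (SE 0.70) fell just short (limma adjusted p = 0.0501), and KO replicate 3 was far above the other libraries. Serpina11 had 36.1, 92.4 and 44.4 in WT and 133, 178 and 209 in KO (log2 change 1.67, limma adjusted p = 0.0658).

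Serpina3g, an intracellular inhibitor of cathepsins in leukocytes, lies between the Serpina1 and Serpina3k genes. It had 1616, 2337 and 1727 normalised counts in WT and 2695, 2115 and 1752 in KO, with overlapping groups (log2 change 0.21, limma adjusted p = 0.690). The remaining tested members of chromosome 12 had log2 changes of 1.26 (Serpina3h), 0.90 (Serpina3b), 0.81 (Serpina3i) and 0.64 (Serpina3f). Serpina7, thyroxine-binding globulin, which lies on the X chromosome, had -0.64.

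**Figure D5:**
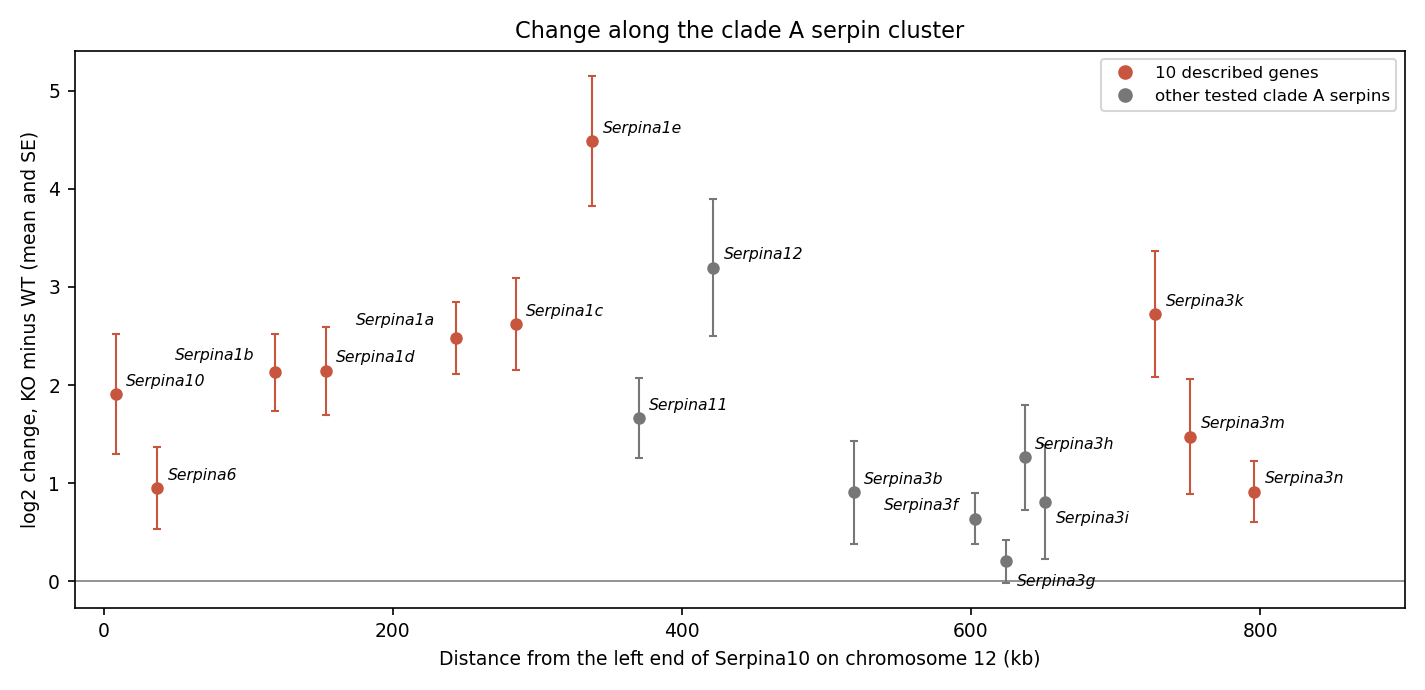
Log2 change, KO minus WT, with its SE (y axis) for each tested clade A serpin of chromosome 12, against the distance in kb from the left end of Serpina10 (x axis); the 10 described genes are red and the others grey. Points are drawn at the middle of each kept transcript. Serpina1e, with its left end at 332 kb, has the highest value (4.49), and Serpina3g, with its left end at 622 kb, the lowest (0.21).

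Along the chromosome the changes did not follow distance in one direction. By the left ends of their kept transcripts, the 5 Serpina1 genes lay 113 to 332 kb from the left end of Serpina10. Log2 changes of these genes went from 2.13 at Serpina1b to 4.49 at Serpina1e. Beyond them the values were 1.67 at Serpina11 and 3.20 at Serpina12, then 0.21 to 1.26 from Serpina3b to Serpina3i. Serpina3k and Serpina3m, whose kept transcripts share their left end at 724 kb, had 2.72 and 1.47, and Serpina3n, at 792 kb, had 0.91. Another Serpina3m isoform, with nearly the same reads, starts only at chr12:104387164, beyond the end of Serpina3k at chr12:104346144.

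Serpins outside clade A that circulate in plasma or act in tissue also had mostly positive values. Of 8 such genes 7 had log2 changes above 0 (median 1.40), and limma called 0, with 7 at an unadjusted p under 0.05, edgeR 0 and DESeq2 5. The 3 of highest mean were Serping1, the C1 inhibitor of complement (0.94), Serpinc1, antithrombin (1.58), and Serpinh1, a collagen chaperone (0.94). Among the intracellular clade B serpins, 8 of 10 were tested and had a median of 0.30, with 0 called by limma, edgeR and DESeq2 and 2 at an unadjusted p under 0.05. Their 3 of highest mean had log2 changes of 0.17 (Serpinb6a), 0.67 (Serpinb1a) and 1.71 (Serpinb2).

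Of 12 proteases and partners of these serpins 6 had log2 changes above 0 (median 0.03), and limma called 0, with 1 at an unadjusted p under 0.05, edgeR 0 and DESeq2 1. Lrp1, the receptor that clears serpin-protease complexes, had -0.48, F10, coagulation factor X, had 0.14 and Adam17, a membrane sheddase, had -0.44. Elane, neutrophil elastase, named after its values were seen because it is the main target of α1-antitrypsin, had 17.5, 44.1 and 28.1 normalised counts in WT and 29.8, 5.96 and 14.4 in KO, with overlapping groups (limma adjusted p = 0.536).

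Among 10 transcription factors of the hepatocyte programme, 3 rose and 9 had log2 changes above 0 (median 1.96). Hnf4a, a master regulator of that programme, had 320, 80.9 and 140 normalised counts in WT and 1167, 836 and 1253 in KO (log2 change 2.79, limma adjusted p = 0.0205). Nr1h4, the bile acid receptor, rose by 2.01 on the log2 scale (limma adjusted p = 0.0420), and so did Foxa3, by 2.23 (limma adjusted p = 0.0470), which is named because it was the remaining call. Cebpa had 0.68 (limma adjusted p = 0.0671). edgeR called 1 of the 10 and DESeq2 6.

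A list of 12 genes covered interleukin-6 signalling and other acute-phase input, which can induce α1-antitrypsin and Serpina3n, and also held the growth hormone receptor. Its median log2 change was 0.09, with 6 genes above 0. In this list limma called 1, with 5 at an unadjusted p under 0.05, edgeR 0 and DESeq2 2. The call was Ghr, the growth hormone receptor, with 281, 148 and 181 normalised counts in WT and 478, 472 and 599 in KO (log2 change 1.38, limma adjusted p = 0.0385). The 3 genes of highest mean were Il6st (0.92), the shared receptor chain of the interleukin-6 family, Socs3 (0.23), its feedback inhibitor, and Stat3 (-0.41), none of which passed.

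Of 12 other acute-phase plasma proteins, 8 had log2 changes above 0 (median 0.77), and limma, edgeR and DESeq2 called 0, with 4 at an unadjusted p under 0.05. Hp, haptoglobin, had 18963, 22301 and 8067 normalised counts in WT and 11548, 13240 and 18810 in KO, with overlapping groups (log2 change -0.08, limma adjusted p = 0.944). Hpx, hemopexin, had a log2 change of 0.71 and Fgg, the fibrinogen gamma chain, one of 1.70, and neither passed. The difference between these lists and the Serpina1 genes was not tested.

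Several isoforms of a gene carried the same reads, so the kept transcript stands for the gene. With the reads of all transcripts of a gene summed, Serpina1d lost its call (limma adjusted p = 0.0654) and the other 4 Serpina1 genes kept theirs. Serpina1d had no other isoform among the matched transcripts, and its log2 change stayed at 2.15. The libraries held 15027644 to 22157238 reads in WT and 10790842 to 19163317 in KO with 1 transcript per gene, and mitochondrially encoded transcripts took 6.19% to 27.5% and 16.2% to 19.95% of them. WT replicate 3 had the most reads and the lowest mitochondrial share.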

How the data were processed

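RNA was measured in 6 libraries, 3 WT and 3 KO, grouped by the labels. The 10 genes and all gene lists were chosen with earlier results of these data known. Per the submitters' processing notes, bcl2fastq 2.17, STAR 2.4.0k, SAMtools, HTSeq 0.5.3, DESeq 1.8.3 and the build GRCm38.p4 were used, without roles or order. Read length, strand setting and the counting of multiply mapping reads are not stated there or in the labels. Per the file headers, the deposited signal for each of 79382 transcripts is a normalised count. All values (100%) were multiples of a step that differed by library (tolerance 0.001), which gave back whole reads. GENCODE for GRCm38 matched 78332 transcripts, and the 1050 others, 1.03% to 1.32% of reads, were not analysed here.

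The transcript of highest mean over the 6 libraries was kept per gene. edgeR's filterByExpr left 15619 genes. limma 3.58.1 (R 4.3.3) with a trended prior was fitted to log2(value + 1), which understates changes of low genes, with genotype as the only term and Benjamini-Hochberg adjustment over all 15619 genes. Two-sided exact permutation tests were used for ratios and shares. Alternatives were pseudocounts of 0.5 and 5, TMM factors, edgeR 4.0.16, DESeq2 1.42.0 and limma-voom on recovered reads, no filter, a CPM of at least 1 in 3 libraries, summed transcripts, omission of single libraries and a replicate block, and, added later, hepatocyte markers without Alb and Trf or of equal weight. The fit was also run on simulated counts drawn independently for each gene and library. Such counts hold no deviation shared across the genes of a library, so that run does not bear on calls that turned on single libraries. The text names the 10 genes, all other tested clade A serpins and the 3 genes of highest mean in each other list it describes by gene; others are said to be named after their values were seen. Some listed genes are not reported here. Serpina3 coding sequences were aligned with MAFFT 7.526. Precision is limited by 3 libraries per group.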

Additional observations from a re-analysis of the deposited data

How the results depend on the processing

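The log2 changes of all 10 genes kept their direction in all 16 alternatives, from 3.54 to 5.02 for Serpina1e and from 0.59 to 1.17 for Serpina3n. Serpina1d lost its call in 7 of the 16, Serpina1b and Serpina1c in 2 each and Serpina1a and Serpina1e in 1 each, while Serpina3k gained a call in 3 and Serpina10 in 1. Over all genes, 381 were called, 326 of them higher, against 1409 with DESeq2 (959 higher), 233 with summed transcripts (205 higher), 334 with limma-voom (252 higher) and 8 to 810 when 1 library was left out. The lowest of these counts came without KO replicate 3, the highest without KO replicate 1, while omission of WT replicate 1 gave 170, of WT replicate 3 173 and of KO replicate 2 136. Of the 10 genes, 5 were called, against 4 with TMM factors, edgeR, limma-voom or summed transcripts, 6 with DESeq2, and 0 to 7 when 1 library was left out, with 2 without KO replicate 2. Relative to the hepatocyte markers, Serpina3m ranged from -0.076 to 0.407 and Serpina3n from -0.736 to 0.183 when 1 library was left out, each crossing 0 without WT replicate 3. In settings added after the data had been seen, Serpina3m was at -0.357 without Alb and Trf and at -0.401 with the markers of equal weight, and the Serpina1 sum fell from 1.495 to 0.912 and 0.868. With summed transcripts, which count reads of the Serpina1b isoforms repeatedly, the share difference went from -11.4 to -17.97 points for Serpina1b and from -7.49 to -3.83 for Serpina1d. The cause of the other changes was not tested. The Serpina1 sum relative to these markers ranged from 1.37 to 1.63 over the other alternatives.

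Replicate numbers are shared by the groups, but deviations of same-numbered libraries correlated at -0.0148, 0.0878 and -0.142, so the numbers were not taken to pair the samples. With the replicate block, 539 genes and 5 of the 10 were called. Not every library correlated best with its own number. Serpina10 in WT replicate 3, with 29 reads, was the lowest count among the 10 genes.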
